A study of Mus musculus with 6 samples.

Results

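Nonmuscle myosin II is the motor that shortens actin bundles in cells outside striated muscle, and the Shroom proteins bring its activators to the apical side of epithelial cells. The data described here are the values of 10 genes of this machinery, chosen by symbol from 22180 genes measured in embryonic mouse lung. The members are the heavy chain genes Myh9, Myh10 and Myh14, the regulatory light chain genes Myl9, Myl12a and Myl12b, the myosin phosphatase targeting subunit genes Ppp1r12a and Ppp1r12b, and the scaffold genes Shroom2 and Shroom3. For each gene the value is that of the probe set that carries its symbol alone and has the highest mean over all arrays, and all 10 were measured.

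RNA of whole lung buds at stage E12.5 was hybridised to 6 arrays, 100 ng of total RNA each. The control group was 3 arrays of genotype Shh cre/+, in which the Shh locus carries a gene for Cre recombinase. The mutant group was 3 arrays of genotype Fzd2Flox/Flox; Shh cre/+, so both groups carried the Cre allele and only the mutants the floxed Fzd2 gene. Fzd2 is a receptor of the Frizzled family, to which Wnt proteins bind. Shh is transcribed in the lung epithelium, so Cre acts there and not in the mesenchyme, while each array measured both. The labels call the arrays biological replicates, but the sources used here do not say how many lungs went into each. The study asked which lung epithelial genes Fzd2 signalling regulates, and the comparison here is mutant against control lungs.

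A myosin II molecule is a pair of heavy chains with essential and regulatory light chains. Phosphorylation of the regulatory light chain, by ROCK kinases or by myosin light chain kinase, turns the motor on, and a phosphatase made of a catalytic subunit and a targeting subunit turns it off. In epithelia, Shroom3 binds actin and ROCK kinases at apical junctions, and the myosin drawn together there narrows the cell's apex, which bends or folds the sheet. Activity is set largely by phosphorylation and by where the proteins lie, neither of which an array of RNA measures.

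None of the 10 members passed the test for a difference between mutant and control lungs. At an adjusted p under 0.05 over all genes (limma with Benjamini-Hochberg adjustment) 0 of 10 were called, where 0.0631% of all genes were. At an unadjusted p under 0.05 there were also 0 of 10, where 7.34% of all genes were higher and 5.15% were lower. The control and mutant arrays overlapped in all 10 members, while in 19.4% of all genes they did not overlap. Mean values in mutants lay between 93.9% (Myh9) and 102% (Shroom2) of the control level, lower in 7 members and higher in 3 (lower in 6 after a further quantile normalization, which turned Myh10). Of all 22180 genes, 10027 had lower means. The members' median log2 difference, mutant minus control, was -0.04, beside 0.01 over all genes tested. All 10 members lie above the 30th percentile of mean expression, and over the genes above it the median was -0.0005. The median absolute difference was 0.04 in the members and 0.07 in all genes tested, and limma's standard errors had a median of 0.06 in both.

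The size of change that these arrays leave possible can be read from the 95% intervals. Across the members the lower bounds ran from 84.2% (Ppp1r12b) to 94.4% (Shroom2) of the control level, and the upper bounds from 103% (Myh9) to 114% (Myl12a). The values come from bulk tissue, in which fewer cells of a type and less RNA per cell cannot be told apart, and in which a change in the epithelium is averaged with the RNA of all other cells.

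**Figure D1:**
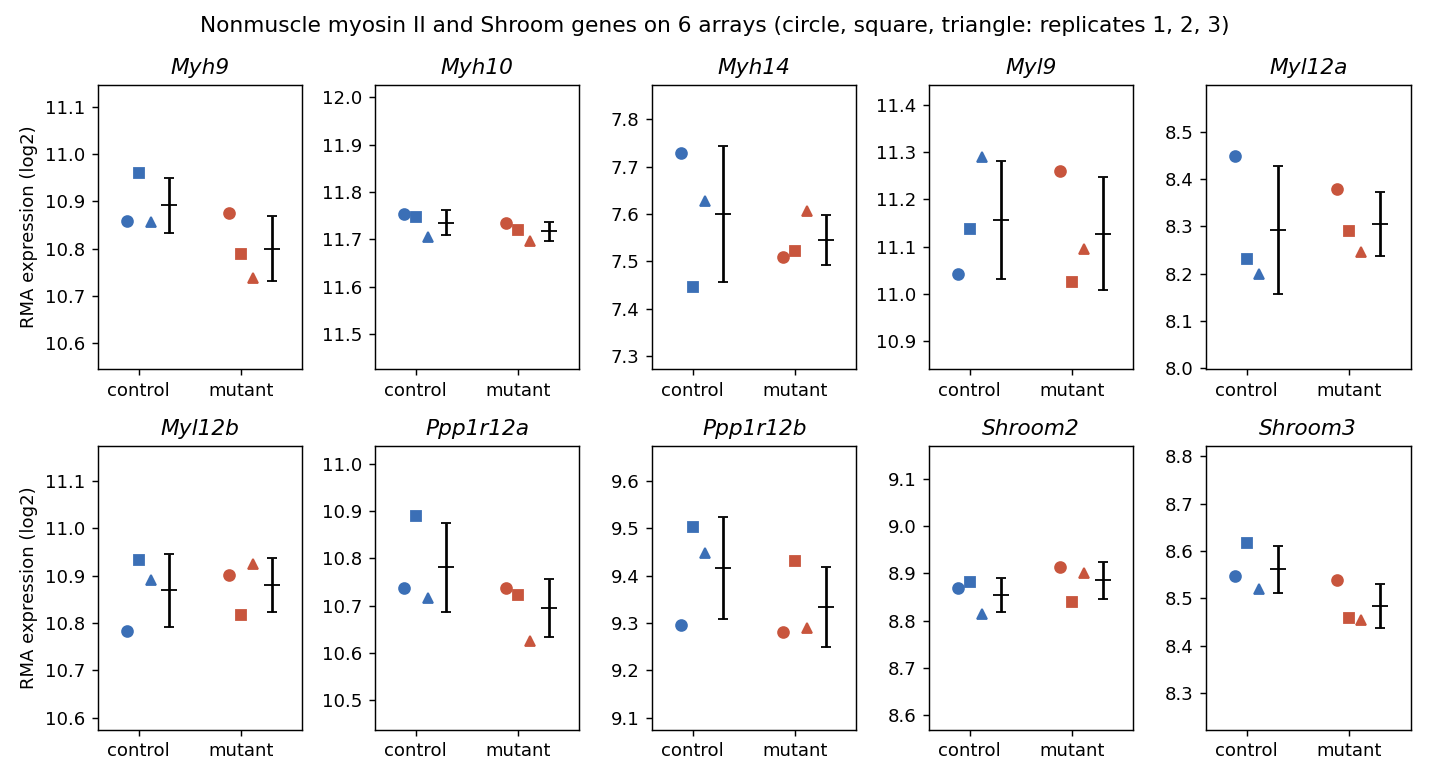
Log2 expression (vertical axes, each spanning 0.6 units around the gene's mean) of the 10 members in 3 control (blue) and 3 mutant (red) arrays; circles, squares and triangles are replicates 1, 2 and 3, and black bars are the group mean ± SD. In each panel the 2 groups overlap, and Myh10 has the narrowest spread.

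Myh9 encodes the heavy chain of nonmuscle myosin IIA, a form found in most cell types. Its log2 expression was 10.86, 10.96 and 10.86 in the controls and 10.87, 10.79 and 10.74 in the mutants, each given in the order of replicates 1 to 3. Mutant replicates 2 and 3 lay below all controls, and mutant replicate 1 lay between the controls. The log2 difference was -0.09 (SE 0.06, n = 3 and 3), or 93.9% of the control level with an interval from 85.6% to 103%. This was the smallest p among the members (limma, unadjusted p = 0.153, adjusted p = 0.537), and 63.9% of all genes had a smaller absolute difference. With 1 array left out the difference was -0.06 without control replicate 2 or mutant replicate 3 and -0.13 without mutant replicate 1.

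Myh10 encodes the heavy chain of nonmuscle myosin IIB, prominent in embryonic tissue. It read 11.75, 11.75 and 11.71 in the controls and 11.74, 11.72 and 11.70 in the mutants. The 6 arrays spanned only 0.06 log2 units, a 1.04-fold range, where the median gene spanned 0.23. Its log2 difference was -0.02 (SE 0.05), with an interval from 91.8% to 106% of the control level (limma adjusted p = 0.890), and it turned to 0.02 after a further quantile normalization.

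Myh14 encodes the heavy chain of nonmuscle myosin IIC, known from epithelia. It read 7.73, 7.45 and 7.63 in the controls and 7.51, 7.52 and 7.61 in the mutants. Its mean expression was the lowest of the members, at percentile 47.8 of all genes, and how far it stands above background was not tested. The highest and the lowest array were both controls, replicates 1 and 2, and all 3 mutants fell between them. The log2 difference was -0.05 (SE 0.08, limma adjusted p = 0.789). It was 0.01 without control replicate 1 and -0.13 without control replicate 2. Among single arrays left out, only control replicate 1 turned its sign.

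Among the regulatory light chains, Myl9 is the form abundant in smooth muscle, and Myl12a and Myl12b are the widely expressed forms. The promoter of Myl9 is shown because it holds a CArG box, the site recognised by serum response factor, the DNA-binding partner of the smooth muscle coactivator Myocd. The 250 bases before its annotated start (RefSeq, GRCm38.p6, plus strand, chr2:156775214-156775463) read as follows, with the CArG box in capitals.
Myl9: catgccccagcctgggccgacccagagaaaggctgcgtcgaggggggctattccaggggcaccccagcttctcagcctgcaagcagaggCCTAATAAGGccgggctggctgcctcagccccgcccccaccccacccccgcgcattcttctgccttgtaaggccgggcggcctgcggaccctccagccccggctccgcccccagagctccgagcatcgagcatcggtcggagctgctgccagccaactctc
The box begins 161 bases before the start and reads in the gene's direction; the pattern searched equals its own reverse complement, so that 1 strand covers both. The pattern was CC, then 6 letters that are each A or T, then GG. Windows of the same length held this exact pattern in 482 of 32851 annotated promoters, 1.47%. It was in 0 of the 6 promoters matched to smooth muscle markers, which cover 6 of the 10 markers. Of the 15 promoters annotated for the 10 members, that of Myl9 was the only 1 to hold it. Sites with another letter in the middle, such as ccttgtaagg in the sequence above, were not counted. The counts therefore do not show which promoters lack a CArG box. A match describes the letters and shows no binding in these lungs.

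Myl9 read 11.04, 11.14 and 11.29 in the controls and 11.26, 11.03 and 11.10 in the mutants. The controls and mutants covered nearly the same range, and the log2 difference was -0.03 (SE 0.08, interval 85.5% to 112% of the control level, limma adjusted p = 0.907). Its sign turned to 0.04 without control replicate 3 and to 0.02 without mutant replicate 2. Myocd itself read 9.95, 10.14 and 9.92 in the controls and 9.61, 9.75 and 9.39 in the mutants, a log2 difference of -0.42 (SE 0.10, limma unadjusted p = 0.00349, adjusted p = 0.212). For Myocd all mutants lay below all controls, whereas for Myl9 the groups overlapped. Myocd had the lowest difference of 10 smooth muscle markers. Only 4 of these 10 did not overlap, all with the mutants lower (8.83% of all genes). Besides Myocd these were Actg2 (-0.38), Myh11 (-0.32) and Acta2 (-0.13). Tagln (-0.08) and Cnn1 (-0.11) were among the markers whose groups overlapped as those of Myl9 did. Whether Myl9 or any of these markers follows Myocd was not tested.

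Myl12b read 10.78, 10.93 and 10.89 in the controls and 10.90, 10.82 and 10.92 in the mutants, a log2 difference of 0.01 (SE 0.06, limma adjusted p = 0.955). Myl12a read 8.45, 8.23 and 8.20 in the controls and 8.38, 8.29 and 8.25 in the mutants, also a difference of 0.01 (SE 0.08, adjusted p = 0.963). In both genes the mutants lay inside the control range. Myl12a and Myl12b are neighbouring, closely similar genes on chromosome 17, and how far their probes share signal was not tested. A second probe set of Myl12a alone gave a log2 difference of 0.04 (SE 0.08). It read 7.76, 7.81 and 8.03 in the controls and 7.87, 7.86 and 7.98 in the mutants. Control replicate 1 was the lowest array there but the highest in the Myl12a set reported above. These sets of the same gene thus did not follow each other across arrays, which limits what either says of Myl12a. A probe set that the annotation assigns to both genes gave -0.11 (SE 0.10). That shared probe set read 10.61, 10.89 and 10.64 in the controls and 10.70, 10.63 and 10.48 in the mutants, so its groups overlapped as well.

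Ppp1r12a encodes MYPT1, the targeting subunit that brings the phosphatase to myosin in most cells. It read 10.74, 10.89 and 10.72 in the controls and 10.74, 10.72 and 10.62 in the mutants. Control replicate 2 stood highest and mutant replicate 3 lowest, and the other 4 arrays lay within a narrow band. The log2 difference was -0.09 (SE 0.06, interval 85.0% to 104%, limma adjusted p = 0.601), and it was -0.03 without control replicate 2.

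Ppp1r12b encodes MYPT2, a targeting subunit best known from heart and skeletal muscle. It read 9.29, 9.50 and 9.45 in the controls and 9.28, 9.43 and 9.29 in the mutants. Control replicate 1 was as low as mutant replicates 1 and 3, and mutant replicate 2 was close to the other controls. The log2 difference was -0.08 (SE 0.07, limma unadjusted p = 0.289, adjusted p = 0.655). Without control replicate 1 and mutant replicate 2, which both stand apart in genes of other tissues, it was -0.19 (limma unadjusted p = 0.0208, adjusted p = 0.336), the only member value at an unadjusted p under 0.05 among the settings tried. It was -0.04 (limma unadjusted p = 0.637) without control replicate 2, -0.06 without mutant replicate 1, -0.13 without mutant replicate 2 and -0.14 without control replicate 1. Some heart muscle genes stood high in mutant replicate 1, where the mean of 9 markers was 8.80 against 7.91 to 7.98 on the other arrays. Myh6 (9.25), Myl7 (11.2), Tnnt2 (10.59) and Actc1 (10.96) stood well above the other arrays there. Myh7 (6.81), Myl2 (7.46) and Myl3 (6.75) lay within the range of the other arrays. The value of Ppp1r12b on that array was the lowest of the 6 by little, 9.281 beside 9.289 in mutant replicate 3. The part of heart muscle cells in the values of Ppp1r12b was not tested.

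Shroom3 encodes the apical scaffold that recruits ROCK kinases in folding epithelia. It read 8.55, 8.62 and 8.52 in the controls and 8.54, 8.46 and 8.45 in the mutants. Mutant replicates 2 and 3 lay below all controls and mutant replicate 1 lay among them, the same arrangement as in Myh9. The log2 difference was -0.08 (SE 0.05, interval 87.2% to 103%, limma unadjusted p = 0.176, adjusted p = 0.562). It kept its sign with each array left out, from -0.10 to -0.05.

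Shroom2, a relative found at cell junctions in epithelium and endothelium, read 8.87, 8.88 and 8.81 in the controls and 8.91, 8.84 and 8.90 in the mutants. Mutant replicates 1 and 3 lay above all controls and mutant replicate 2 between them. The log2 difference was 0.03 (SE 0.05, interval 94.4% to 110%, limma adjusted p = 0.817). It was 0.01 without control replicate 3, 0.02 without mutant replicate 1 and 0.05 without mutant replicate 2. A two-sided exact permutation test, in which 3 arrays against 3 cannot give less than p = 0.1, gave p between 0.2 (Ppp1r12b and Shroom3) and 0.9 (Myl12a) over the 10 members.

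The members did not share 1 order of arrays. Control replicate 2 was the highest array in 5 of 10 members, among them Myh9, Ppp1r12a and Shroom3, and in 18.3% of all genes. Mutant replicate 3 was the lowest in 4 of 10, and in 13.8% of all genes. The mean of the 10 members was 9.81, 9.83 and 9.81 in the controls and 9.81, 9.76 and 9.76 in the mutants.

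The remaining Shroom genes, from a list of apical actin genes outside the members, did not overlap between groups, as in 19.4% of all genes and in 6 of the 30 genes of that list (1 higher and 5 lower). Shroom1, with mean expression at percentile 43.9 of all genes, read 7.21, 7.12 and 7.28 in the controls and 7.44, 7.49 and 7.61 in the mutants. All mutants lay above all controls, with a log2 difference of 0.31 (SE 0.06, limma unadjusted p = 0.00167, adjusted p = 0.179) that ran from 0.26 to 0.35 with each array left out. Shroom4 read 8.96, 9.04 and 9.09 in the controls and 8.84, 8.83 and 8.87 in the mutants. All mutants lay below all controls, with a difference of -0.18 (SE 0.05, unadjusted p = 0.00821, adjusted p = 0.276), from -0.22 to -0.15 with each array left out. Neither passed over all genes, so the Shroom family as measured gave 1 gene higher and 1 lower at an unadjusted p under 0.05 and 2 with overlapping groups. Whether these genes differ from Shroom2 and Shroom3 was not tested.

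**Figure D2:**
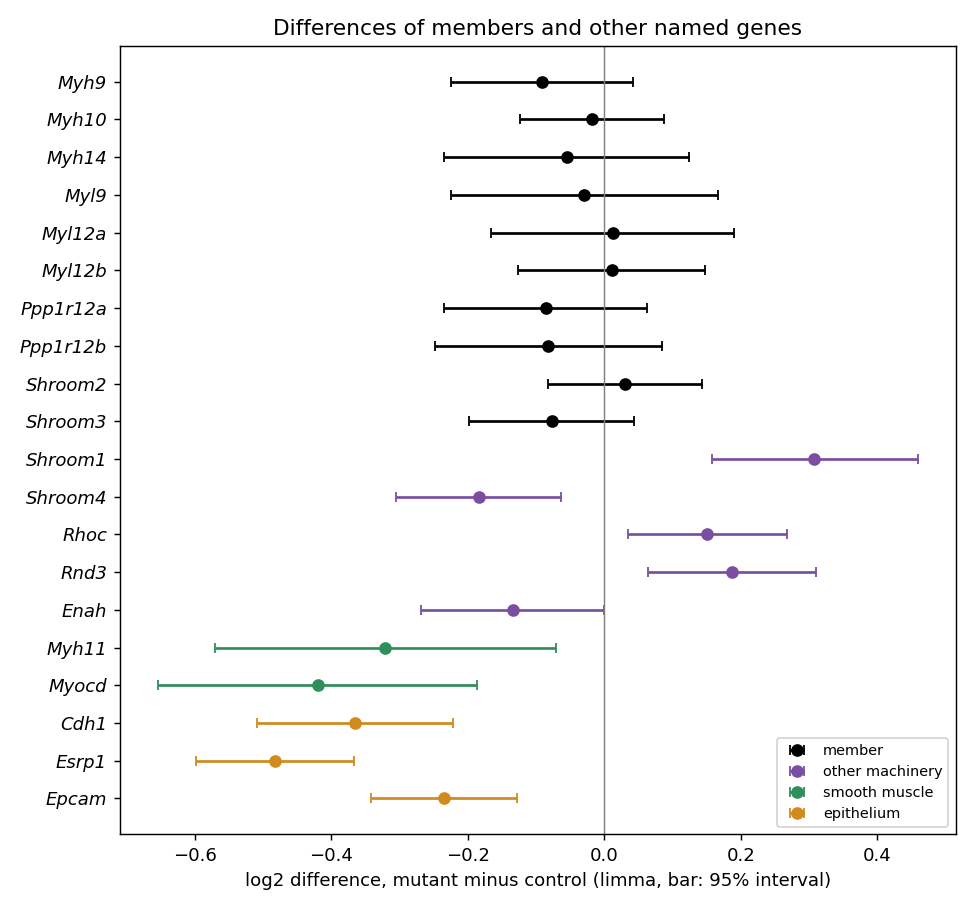
Log2 difference, mutant minus control (horizontal axis), with limma's 95% interval for the 10 members (black), other genes of the machinery (purple), smooth muscle genes (green) and epithelial genes (orange). Each member's interval covers 0, while those of the other genes drawn, among them Shroom1, Myocd, Cdh1 and Esrp1, do not. That contrast follows from the choice of genes. The other machinery genes were named for an unadjusted p under 0.05 by limma. The smooth muscle and epithelial genes drawn are only a part of their lists. Tagln and Krt19, for which the interval covers 0, are not drawn. Of the genes drawn only Esrp1 passed over all genes.

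The apical actin list as a whole held 30 measured genes, among them actins, tropomyosins, alpha-actinins and junction scaffolds. Mean values were lower in 25 of them (21 after a further quantile normalization) and higher in 5, beside 10027 lower of all 22180 genes. The median log2 difference of the list was -0.06, beside 0.01 over all genes. That median was -0.03 without control replicate 2, -0.04 without mutant replicate 2 and -0.09 without mutant replicate 1. By limma 0 of 30 passed over all genes. With no adjustment, at a p under 0.05, 1 gene (Shroom1) was higher and 2 were lower, beside the 7.34% and 5.15% of all genes. The second lower gene was Enah (-0.13, SE 0.06, unadjusted p = 0.0495), which encodes an elongation factor of actin filaments. Its p reached 0.160 without control replicate 2 and 0.0934 after that normalization. The cytoplasmic actin gene Actb, chosen for its role, had a difference of -0.0013 (SE 0.05).

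The list of myosin II regulators mixes activators and inhibitors. It holds small GTPases, kinases, phosphatase subunits and inhibitors, GTPase exchange factors and a GTPase-activating protein. Of 22 measured, 14 had lower (12 after a further quantile normalization) and 8 had higher means, beside 10027 lower of all 22180 genes. The median log2 difference of the list was -0.05. By limma 0 of 22 passed over all genes, and 2 were higher and 0 lower at an unadjusted p under 0.05, near the 7.34% and 5.15% of all genes. They were Rnd3, which encodes an inhibitor of ROCK kinase signalling, and the small GTPase gene Rhoc. Rnd3 read 10.17, 10.31 and 10.23 in the controls and 10.43, 10.40 and 10.45 in the mutants, a log2 difference of 0.19 (SE 0.05, unadjusted p = 0.00844, adjusted p = 0.278). Rhoc read 10.05, 10.07 and 10.004 in the controls and 10.23, 10.13 and 10.22 in the mutants, a difference of 0.15 (SE 0.05, unadjusted p = 0.0178, adjusted p = 0.315). In both genes all mutants lay above all controls, and Rhoc's unadjusted p reached 0.0630 at most with 1 array left out. The groups also did not overlap, with the mutants lower, in Rhoa and in Arhgef12, a gene of an exchange factor, so that 4 of 22 regulators were separated, beside 19.4% of all genes.

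The next regulators were chosen for their role and not by p. The kinase gene Rock1 had a log2 difference of -0.10 (SE 0.06, limma adjusted p = 0.505), and Rhoa, the main activator of that kinase, one of -0.05 (SE 0.04, adjusted p = 0.637), with 12.94 in each control and 12.86 to 12.91 in the mutants. Mylk, which encodes myosin light chain kinase, had a difference of -0.11 (SE 0.06, adjusted p = 0.496).

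The list of other class II myosin genes held those of smooth, heart and skeletal muscle, with essential light chains and other regulatory light chains. By their means 10 of 20 were higher and 10 lower, with a median of 0.0003 (-0.01 after a further quantile normalization). By limma 0 of 20 passed over all genes, and 2 were higher and 1 lower at an unadjusted p under 0.05, near the 7.34% and 5.15% of all genes. Myh11, the smooth muscle heavy chain, read 10.29, 10.40 and 10.26 in the controls and 9.94, 10.24 and 9.81 in the mutants. All mutants lay below all controls, and the log2 difference was -0.32 (SE 0.11, unadjusted p = 0.0183, adjusted p = 0.318). Its unadjusted p reached 0.0618 with 1 array left out. The light chain genes Myl10 (0.22, SE 0.06) and Myl1 (0.27, SE 0.11) were the higher ones. Both were dim, with mean expression at percentiles 23.2 and 27.9 of all genes. Without mutant replicate 1, the array with high heart muscle genes, Myl1's difference was 0.14. The atrial heavy chain gene Myh6, named for that array, read 9.25 there and at most 7.09 elsewhere.

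Of the cell type markers, 1 gene passed over all genes, the epithelial Esrp1. All 18 epithelial markers were lower by their means in the mutants, and their median log2 difference was -0.29. The limma call of Esrp1 (1 of 18) was lost with the replicate block and with any 1 array left out, where no gene passed. With no adjustment 14 of 18 were lower at a p under 0.05 (5.15% of all genes), and in 15 the groups did not overlap, with all mutants lower (8.83% of all genes). The mean of the 18 was 9.51 to 9.59 in controls and 9.20 to 9.31 in mutants. Nkx2-1, which defines lung epithelium, had a log2 difference of -0.41 and still read 10.05 in mutant replicate 1. Of 10 smooth muscle markers 0 passed over all genes by limma. Of these, 8 had lower means and 4 were lower at an unadjusted p under 0.05 (5.15% of all genes). The count of 4 became 2 without control replicate 2 or mutant replicate 3 and 6 without mutant replicate 1. Their mean was 9.57 to 9.68 in controls and 9.37 to 9.54 in mutants. Of 10 mesenchyme markers 0 passed over all genes by limma, 6 had higher and 4 lower means, and 5 were higher at an unadjusted p under 0.05 (7.34% of all genes). That count was 2 without control replicate 3 or mutant replicate 1 and 3 without control replicate 1 or mutant replicate 2. Their mean was 10.99 to 11.07 in controls and 11.09 to 11.14 in mutants. Of 5 leukocyte markers 0 passed over all genes by limma, and 4 had higher means. At an unadjusted p under 0.05, 3 (Tyrobp, Fcer1g and Cx3cr1) were higher (7.34% of all genes). The median log2 difference of the 5 was 0.30. Their mean was 8.17 to 8.26 in controls and 8.37 to 8.49 in mutants. The part of these cell types in the members' values was not tested.

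**Figure D3:**
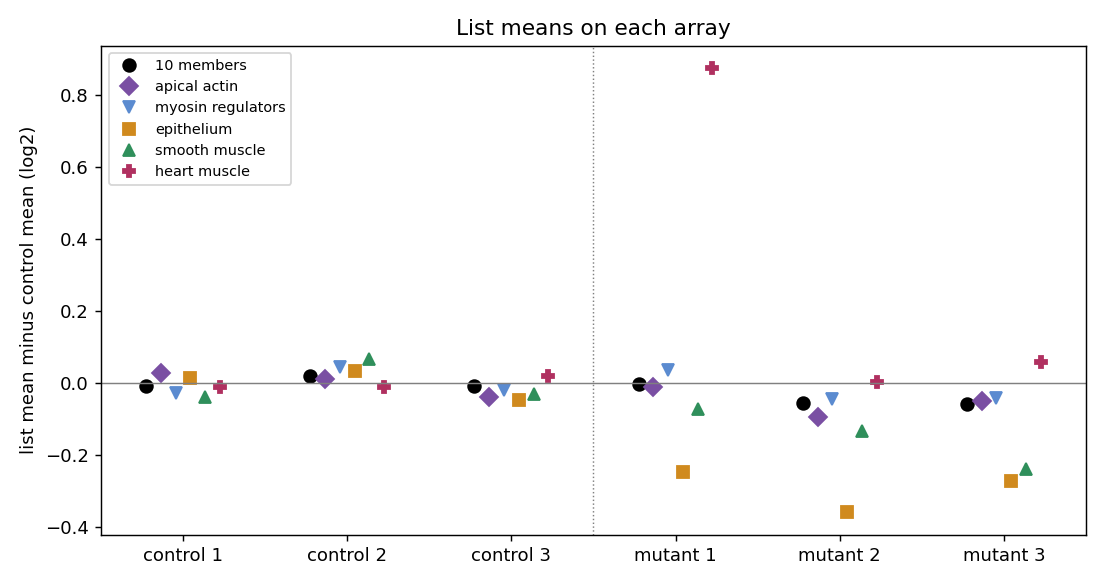
Mean log2 expression of each list minus its mean over the 3 controls (vertical axis) on each array (horizontal axis), for the 10 members and 5 other lists. The members lie within 0.06 log2 units of 0 on each array, the epithelial markers lie 0.25 to 0.36 below 0 in the mutants, and the heart muscle markers stand 0.87 above 0 in mutant replicate 1.

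Some facts of the whole series bear on these values. Over 41345 probe sets the array medians ran from 7.29 to 7.32, and the number of arrays limits the precision of each value. Fzd2 read 9.57, 9.82 and 9.75 in the controls and 9.67, 9.07 and 9.54 in the mutants, so that the array labelled as mutant replicate 1 was inside the range of the controls (log2 difference -0.29, SE 0.15, limma adjusted p = 0.475). That difference was -0.10 without mutant replicate 2 and -0.41 without mutant replicate 1. Control replicate 1 stood apart in genes of adult small intestine, with a mean of 9.71 over 7 markers against 5.65 to 5.88 elsewhere. Mutant replicate 2 stood apart in adipose genes, with a mean of 10.6 over 4 markers against 6.46 to 7.52 elsewhere. Without these 2 arrays together the median difference of the members was -0.02, 0 of 10 were called, and 13 of 18 epithelial markers were lower and 1 (Krt19) higher at an unadjusted p under 0.05, with 17 of 18 means lower.

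**Figure D4:**
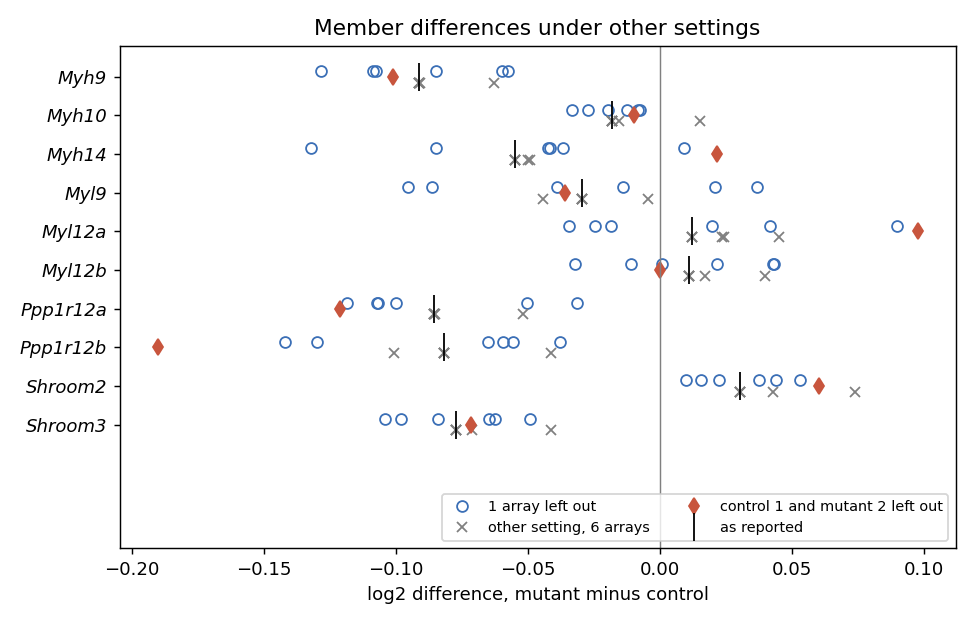
Log2 difference of each member (horizontal axis), mutant minus control, as reported (black line), with 1 array left out (blue circles), without control replicate 1 and mutant replicate 2 together (red diamonds), and under 6 other settings (grey crosses). Myh9, Ppp1r12a, Ppp1r12b and Shroom3 stay below 0 and Shroom2 above 0 in each setting drawn, while Myh14, Myl9, Myl12a and Myl12b cross 0 when single arrays are left out.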

How the data were processed

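Values for the 6 arrays were log2 expression as the authors deposited them; the submitters' processing notes name oligo and RMA. That method corrects background, sets the arrays to a common distribution and summarises probes into probe sets, so only changes relative to other genes can be seen. The log2 scale was read from the values (3.55 to 14.04). Versions and filters are not stated. Of 41345 probe sets, 23521 carried 1 gene symbol, which gave 22180 genes; no filter was applied. A two-sided limma test compared the groups (limma 3.58.1, R 4.3.3, lmFit and eBayes, with no term but group). Benjamini-Hochberg adjustment was over all genes, with a threshold of 0.05. The code was also run on simulated data with changes larger than any member's difference. That run therefore does not bear on changes as small as those of the members. Differences are mutant minus control, with limma's standard error and 95% interval.

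The members and lists were chosen with earlier results of these data known. Other genes of the 3 machinery lists are named at an unadjusted p under 0.05, up to 4 in each direction per list; genes named for their role are said to be. No member reached the absolute difference of 0.2 set for naming genes of similar profile. Some listed genes are not reported here. Promoters came from RefSeq (GRCm38.p6). Figures used matplotlib 3.10.9 in Python 3.11.15.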

Additional observations from a re-analysis of the deposited data

How the results depend on the processing

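With 13 alternatives (another quantile normalization, genes above the 30th percentile, averaged probe sets, trend and robust eBayes, array weights, the replicate block, each array left out, and 2 arrays left out), 0 members were called in each, and the members' median stayed between -0.06 and -0.02. Members at an unadjusted p under 0.05 numbered 1 (Ppp1r12b) without control replicate 1 and mutant replicate 2 together, and 0 in the other 12. Of 130 member values, 120 kept their sign. Myh10 turned to 0.0151 after quantile normalization, and Myh14 to 0.0215 without those 2 arrays. With 1 array left out, Myh14 ran from -0.13 to 0.0093, Myl9 from -0.0954 to 0.0369 (0.021 without mutant replicate 2), Myl12a from -0.0345 to 0.09 (-0.0184 without control replicate 2, -0.0246 without mutant replicate 1) and Myl12b from -0.032 to 0.0433 (-0.0108 without mutant replicate 3). The cause was not tested.

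The labels number the replicates alike in both groups. Deviations of same-numbered arrays from their group means correlated at -0.045, -0.061 and 0.074 over genes for numbers 1, 2 and 3. Arrays of unlike number gave -0.094 to 0.137. These deviations also hold genes high on single arrays, so the correlations cannot show whether same-numbered arrays were paired. The labels do not say. With the replicate block 0 members were called and the smallest member p was 0.186 (Myh9). Over all genes the count called was 14, and 0 with the block or with any 1 array left out, 8 after quantile normalization, 25 above the 30th percentile and 46 with trend and robust eBayes. Signal over background was not used here.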
